A study of Mus musculus with 6 samples.

Results

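Immediate early genes were examined in LYVE-1+ tumor-associated macrophages (TAMs) sorted from mammary tumors of mice given the heme oxygenase inhibitor KCL-HO-1i or vehicle. The set held 10 genes chosen by name as immediate early and AP-1 genes, Fos, Fosb, Jun, Junb, Jund, Egr1, Atf3, Ier2, Dusp1 and Zfp36, and all 10 were found among the 21841 genes of the table. The animals, FVB/N-Tg(MMTV-PyVT)634Mul/J with a WT label for genotype, carried the MMTV-PyMT transgene, in which the mouse mammary tumor virus promoter drives the polyoma middle T antigen in the mammary epithelium and tumors arise spontaneously. Vehicle was given to 3 mice and KCL-HO-1i to 3 mice by intraperitoneal injection at 25 µmol/kg/day, and all were treated for 36 h before tumors were taken. Ages of the mice were not given in the sources used here. In both groups tumors were minced and digested with warm collagenase, and live CD45+F4/80+CD206+LYVE-1+ cells were sorted for bulk RNAseq. Both groups went through this digestion, undigested tissue was not analysed here, and the part of digestion in the levels was not tested.

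Immediate early genes are transcribed within minutes of a stimulus, from promoters that are already poised and without new protein synthesis. Growth factors, cytokines and stress act through MAP kinases on factors bound at these promoters, such as SRF with its ELK partners and CREB. FOS and JUN proteins pair to form the transcription factor AP-1, EGR1 is a zinc finger transcription factor, and DUSP1 and ZFP36 are feedback inhibitors that dephosphorylate MAP kinases and destabilize AU-rich cytokine mRNAs. The same genes are well known to be induced when tissues are dissociated into single cells at warm temperature, which in macrophages can mask their state in the tissue.

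The libraries were shallow, with totals of 206728 to 338255 estimated counts with vehicle against 207812 to 535224 with KCL-HO-1i. Mitochondrial genes took 1.17% to 3.77% of the counts with vehicle against 2.45% to 41.8% with KCL-HO-1i, the highest value being that of replicate 3 (95% Wilson interval 41.6% to 41.9%, which covers counting error only). Ribosomal protein genes took 0.212% to 1.08% with vehicle and 1.63% to 2.58% with KCL-HO-1i, without overlap. From 14017 to 17320 genes had a count with vehicle and from 7584 (replicate 1) to 15150 with KCL-HO-1i, and the part of these differences in the results was not tested. The 1475 olfactory and vomeronasal receptor genes, which macrophages are not known to use, took 5.97% to 6.39% with vehicle and 2.19% to 4.14% with KCL-HO-1i. The library codes of the vehicle mice shared 1 prefix and those of the KCL-HO-1i mice had 2 others, so that any effect of what the prefix stands for cannot be told apart from treatment. Hmox1, which encodes the target of the inhibitor, had 3, 0 and 11 counts with vehicle against 148, 316 and 293 with KCL-HO-1i.

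The question put to these genes was whether their levels differed between the 3 KCL-HO-1i and the 3 vehicle libraries. Their counts together came to 268, 91 and 139 for vehicle against 1228, 1144 and 2648 for KCL-HO-1i, in replicates 1, 2 and 3 of each. After TMM normalization, which scales each library by a trimmed mean of its ratios to the others, the sum was 814 ± 592 CPM (read counts scaled to library size) with vehicle and 6578 ± 2592 CPM with KCL-HO-1i (SD, n = 3). Replicate 1 was the highest vehicle library, and the groups did not overlap. All 3 KCL-HO-1i libraries lay above all 3 vehicle libraries for 6 of the 10 genes (Fos, Fosb, Junb, Atf3, Dusp1 and Zfp36), whereas 7.88% of the 7263 genes tested did so and 16.1% lay wholly below. The groups overlapped for Jun, Jund, Egr1 and Ier2. Of the 10 genes, 9 passed the filter on low counts and Jund did not, and only Jun and Egr1 had at least 10 counts in every vehicle library, so that the other 7 passed with the help of the KCL-HO-1i libraries.

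**Figure D1:**
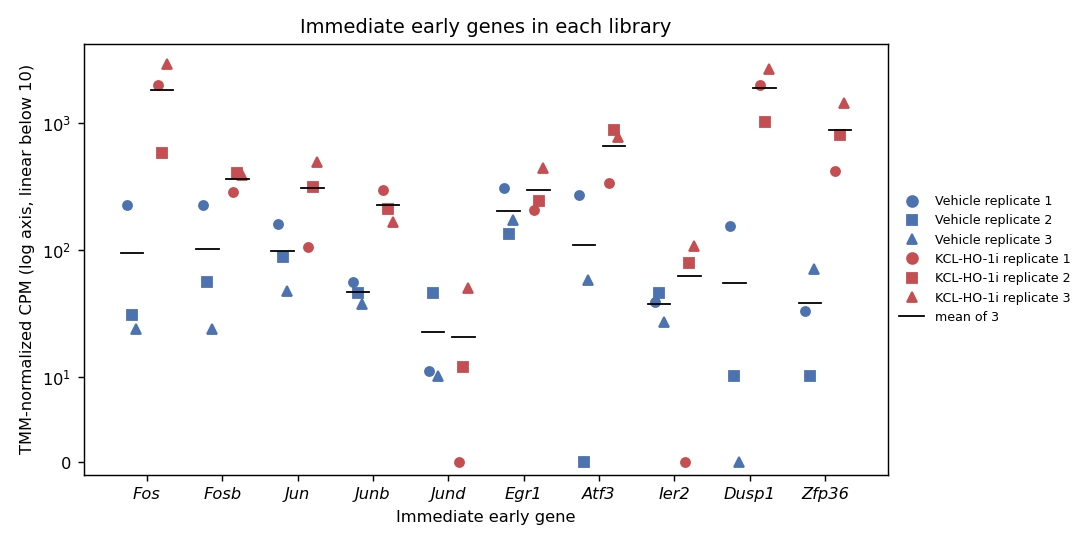
TMM-normalized CPM of the 10 immediate early genes (log axis, linear below 10) in each of the 6 libraries, with vehicle in blue, KCL-HO-1i in red, symbols for replicates and lines for the mean of 3. Fos, Fosb, Junb, Atf3, Dusp1 and Zfp36 were higher in each KCL-HO-1i library than in each vehicle library, and the groups overlapped for Jun, Jund, Egr1 and Ier2.

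The quasi-likelihood test of edgeR, which called a gene when the adjusted p was below 0.05 and the log2 fold change beyond 0.6 in size, called 0 of these 9, and 0% of all 7263 genes tested were called. Before adjustment p was below 0.05 for 4 of the 9 (Fos, Junb, Dusp1 and Zfp36), all higher with KCL-HO-1i, against 5.01% of all genes tested. All 9 had a log2 fold change above 0, against 32.6% of all genes tested, and their median was 2.27 while that of all genes was -0.52. As 7 of the 9 passed the filter with the help of the KCL-HO-1i libraries, these counts and this median are not independent of the filter. For none of the 10 genes could the exact permutation test over mice give a p-value under 0.1, the smallest that 3 against 3 allow.

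Fos encodes the partner of JUN in the classical AP-1 dimer. In GRCm38 it occupies chromosome 12 from 85473890 to 85477273 (plus strand). Its counts were 41, 6 and 7 with vehicle against 435, 146 and 818 with KCL-HO-1i, which after normalization were 229, 31.0 and 23.9 CPM against 2005, 583 and 2936 CPM. Vehicle replicate 1 held most of the vehicle counts, and KCL-HO-1i replicate 2 was the lowest of its group, yet the groups did not overlap. The log2 fold change was 4.29 (SE, standard error, 1.16, edgeR adjusted p = 0.296). Fosb encodes a close relative of FOS that also needs a JUN partner. It lies on chromosome 7 from 19302696 to 19310051 and had 41, 11 and 7 counts with vehicle against 63, 102 and 110 under the inhibitor, or 103 ± 110 CPM against 364 ± 64.3 CPM (SD, n = 3). The highest vehicle library, replicate 1 at 229 CPM, was close to the lowest KCL-HO-1i library at 290.3 CPM. The log2 fold change of Fosb was 1.83 (SE 0.92, edgeR adjusted p = 0.678).

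The Jun genes, which encode proteins able to bind DNA as dimers with FOS proteins or with each other, differed among themselves. Jun lies on chromosome 4 from 95049034 to 95052222. It had 29, 17 and 14 counts with vehicle against 23, 79 and 139 with the inhibitor. KCL-HO-1i replicate 1, at 106 CPM, fell within the vehicle range of 47.8 to 162 CPM, and the log2 fold change was 1.63 (SE 0.87, edgeR adjusted p = 0.731). Junb, which encodes the more weakly activating JUN protein, lies on chromosome 8 from 84974484 to 84978718. Its counts were 10, 9 and 11 with vehicle against 65, 53 and 47 with KCL-HO-1i, and the vehicle libraries were close to each other. Levels were 46.7 ± 9.17 CPM and 227 ± 66.7 CPM (SD, n = 3), so that log2 fold change was 2.27 (SE 0.83, edgeR adjusted p = 0.452). In GENCODE M21 351 bases of Junb overlap Prdx2 on the opposite strand, which had 1, 0 and 6 counts with vehicle against 52, 9 and 12 with KCL-HO-1i, and whether strand was used in counting is not given in the sources used here. Jund, the JUN gene usually expressed without a stimulus, lies on chromosome 8 from 70698949 to 70700616 and had 2, 9 and 3 counts with vehicle against 0, 3 and 14 with KCL-HO-1i. In 4 of the libraries these are at or under the floor of 3 counts, and a difference in Jund was not detectable at this depth.

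Egr1, which encodes a zinc finger transcription factor induced through SRF, had the smallest log2 fold change of the 9 genes tested. Vehicle libraries had 55, 26 and 51 counts, more in sum than for any other of the 10 genes, and KCL-HO-1i libraries had 45, 61 and 123. The groups overlapped at 205 ± 90.6 CPM and 298 ± 126 CPM (SD, n = 3), and the log2 fold change of 0.54 was smaller than its SE of 0.75 (edgeR adjusted p = 0.931). Ier2, a nuclear immediate early gene product, lies on chromosome 8 from 84661331 to 84662852 and had 7, 9 and 8 counts with vehicle against 0, 20 and 30 with KCL-HO-1i. A library of the treated group, replicate 1, was thus below every vehicle library and the other two were above, and a count of 0 there allows up to 13.8 CPM. The log2 fold change of Ier2 was 0.73 (SE 1.43, edgeR adjusted p = 0.939). Atf3, a stress-induced bZIP factor that pairs with JUN proteins, lies on chromosome 1 from 191170296 to 191218039. Its counts were 49, 0 and 17 for vehicle against 73, 221 and 219 for KCL-HO-1i, or 274, 0 and 58.0 CPM against 336, 883 and 786 CPM. Its vehicle libraries spread from none (up to 15.5 CPM) to a level near that of KCL-HO-1i replicate 1, and the log2 fold change was 2.60 (SE 1.25, edgeR adjusted p = 0.649).

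The 2 feedback genes stood with Fos as the largest differences. Dusp1, which encodes the nuclear phosphatase that switches off p38 and JNK, lies on chromosome 17 from 26505590 to 26562128. After rounding its counts were 28, 2 and 0 for vehicle against 433, 257 and 746 for KCL-HO-1i. Annotated pseudogenes overlap it, and its deposited counts were not all whole numbers. All but 2 of its vehicle counts came from replicate 1, and the 0 of replicate 3 allows up to 10.2 CPM. The levels were 55.6 ± 87.5 CPM and 1900 ± 829 CPM (SD, n = 3), and the log2 fold change was 5.11 (SE 1.48, edgeR adjusted p = 0.309). Zfp36 encodes tristetraprolin, which binds AU-rich elements and speeds the decay of inflammatory mRNAs such as that of Tnf. It lies on chromosome 7 from 28376784 to 28380253 and had 6, 2 and 21 counts with vehicle against 91, 202 and 402 with KCL-HO-1i. For Zfp36 replicate 3, not replicate 1, was the highest vehicle library. The levels were 38.5 ± 31.0 CPM and 890 ± 517 CPM (SD, n = 3), and the log2 fold change was 4.49 (SE 0.99, edgeR adjusted p = 0.231, the smallest among the 9 genes).

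Sequences upstream of these genes are shown because Fos, Dusp1 and Zfp36 had the largest fold changes, and Jun is shown beside them as the AP-1 partner whose groups overlapped. Each is the 150 bases before the RefSeq start in GRCm38.p6, read 5′ to 3′ on the strand of the gene. Promoters were available for 8 of the 10 genes. For Dusp1 and Zfp36 this start lies inside the GENCODE span given above, and so do their windows. Capitals mark the core of the cyclic AMP response element (TGACG) and its full palindrome (TGACGTCA), which overlap, or a CArG box, the SRF binding motif. The windows are chr12:85473740-85473889 (plus strand) for Fos, chr17:26508473-26508622 (minus strand) for Dusp1, chr7:28379229-28379378 (minus strand) for Zfp36 and chr4:95052223-95052372 (minus strand) for Jun.
Fos: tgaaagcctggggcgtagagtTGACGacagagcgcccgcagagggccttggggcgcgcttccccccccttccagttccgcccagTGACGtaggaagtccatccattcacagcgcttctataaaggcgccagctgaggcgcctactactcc
Dusp1: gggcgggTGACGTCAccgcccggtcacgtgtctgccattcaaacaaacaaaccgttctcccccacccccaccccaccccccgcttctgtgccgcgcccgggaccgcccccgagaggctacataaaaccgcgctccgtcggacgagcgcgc
Zfp36: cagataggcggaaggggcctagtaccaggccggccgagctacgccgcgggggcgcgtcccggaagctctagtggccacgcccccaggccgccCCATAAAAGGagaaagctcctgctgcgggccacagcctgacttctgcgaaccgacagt
Jun: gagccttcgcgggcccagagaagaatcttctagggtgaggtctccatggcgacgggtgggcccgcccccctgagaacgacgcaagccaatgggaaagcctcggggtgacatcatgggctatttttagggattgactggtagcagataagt

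Both strands of the whole 300-base promoters were searched, from 250 bases before to 50 after the start. The response element core was found in 5 of the 8 promoters (Fos, Fosb, Junb, Atf3 and Dusp1) and in 20.8% of the 32851 promoters of the table. In Fos it stood at -129 and at -66 bases from the start. The full palindrome was found in Dusp1 alone of the 8, at -143, and in 1.79% of all promoters. Within these 300 bases a CArG box was found in Zfp36 alone of the 8, at -58, and in 1.63% of all promoters. Sites further upstream were not searched. The AP-1 site in the form TGANTCA, the only form searched, was in 0 of the 8 and 7.81% of all promoters. The EGR site (GCGNGGGCG) was in Fosb and Zfp36 and 5.55% of all promoters. These are matches of letters and not evidence of binding.

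Per kb of the longest annotated transcript, the order of the genes differed between the groups. With vehicle the level ran from 55.8 ± 72.7 CPM per kb for Atf3, 45.8 ± 20.2 for Egr1 and 44.9 ± 55.3 for Fos down to 13.8 ± 11.1 for Zfp36 and 13.6 ± 12.4 for Jund (SD, n = 3). The spreads were so wide that no neighbors in that order were apart. With KCL-HO-1i Fos came first at 873 ± 562 CPM per kb, followed by Dusp1 at 821 ± 359, Atf3 at 337 ± 147 and Zfp36 at 319 ± 185, and the lowest were Egr1 at 66.3 ± 28.1, Ier2 at 41.1 ± 36.7 and Jund at 12.4 ± 15.7. The pairs Fos with Dusp1 and Atf3 with Zfp36 lay within their spread. Zfp36 ranked 9 of 10 with vehicle and 4 of 10 with KCL-HO-1i, and Dusp1 ranked 8 and 2.

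The make-up of the counts is given as shares, whose intervals cover counting error only. Egr1 took 20.5%, 28.6% and 36.7% of the counts on the 10 genes in vehicle replicates 1, 2 and 3 (95% Wilson intervals 16.1% to 25.8%, 20.3% to 38.6% and 29.1% to 45.0%). Under the inhibitor it took 3.66%, 5.33% and 4.65% (2.75% to 4.87%, 4.17% to 6.79% and 3.91% to 5.51%). Dusp1 took 10.4%, 2.20% and 0% of the counts with vehicle (7.33% to 14.7%, 0.605% to 7.66% and 0% to 2.69%) and 35.3%, 22.5% and 28.2% with KCL-HO-1i (32.6% to 38.0%, 20.1% to 25.0% and 26.5% to 29.9%). The groups did not overlap for either gene. A share depends on the other 9 genes too: the level of Egr1 itself was 205 CPM with vehicle and 298 CPM with KCL-HO-1i. Fos and Fosb together stood at 1.91, 0.367 and 0.422 times the level per kb of the 3 Jun genes with vehicle and at 5.17, 1.72 and 5.35 times with KCL-HO-1i, so that vehicle replicate 1 overlapped KCL-HO-1i replicate 2.

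**Figure D2:**
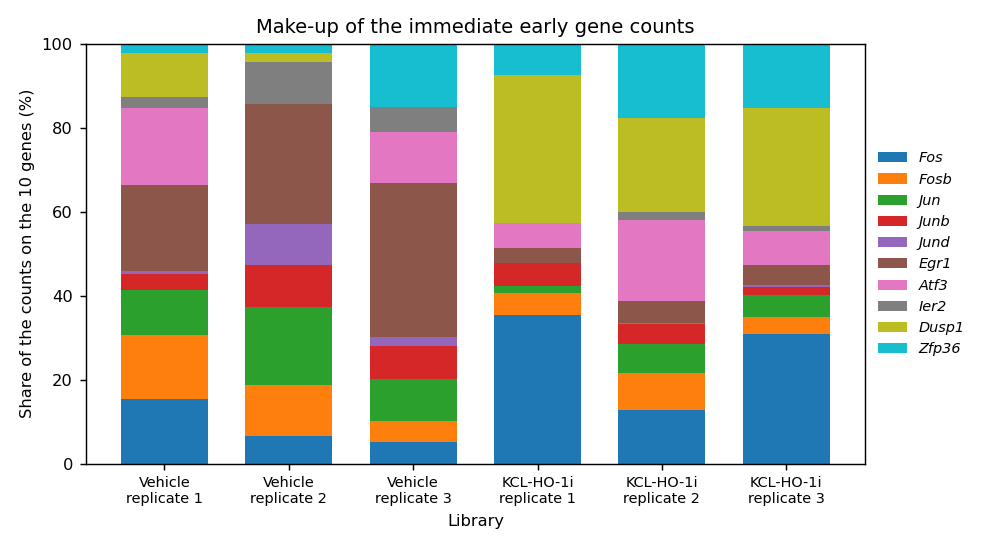
Share of the counts on the 10 immediate early genes taken by each gene (y axis, percent) in each of the 6 libraries (x axis, 1 bar per library). Egr1 took 20.5% to 36.7% of the vehicle bars and 3.66% to 5.33% of the KCL-HO-1i bars, while Dusp1 took at most 10.4% with vehicle and at least 22.5% with KCL-HO-1i.

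The counts of receptor genes that macrophages are not known to express gave a measure of background within each library. The upper end of the central 95% of their values was 8.98, 10.1 and 11.8 counts per kb in vehicle replicates 1, 2 and 3, and in the treated mice it was 11.4, 7.78 and 12.05. In vehicle replicate 1 there were 6 of the 10 immediate early genes above this level (Fos, Fosb, Jun, Egr1, Atf3 and Dusp1). In vehicle replicates 2 and 3 there were 0, so that in those libraries each of the 10 genes, and the shares given above, was within the range of the receptor genes. In KCL-HO-1i replicates 1, 2 and 3 there were 6, 9 and 9 above, and Fos reached 206, 69.3 and 388 counts per kb. Jund was within the range in all 6 libraries, and Egr1 exceeded it in vehicle replicate 1 and in KCL-HO-1i replicates 2 and 3.

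**Figure D3:**
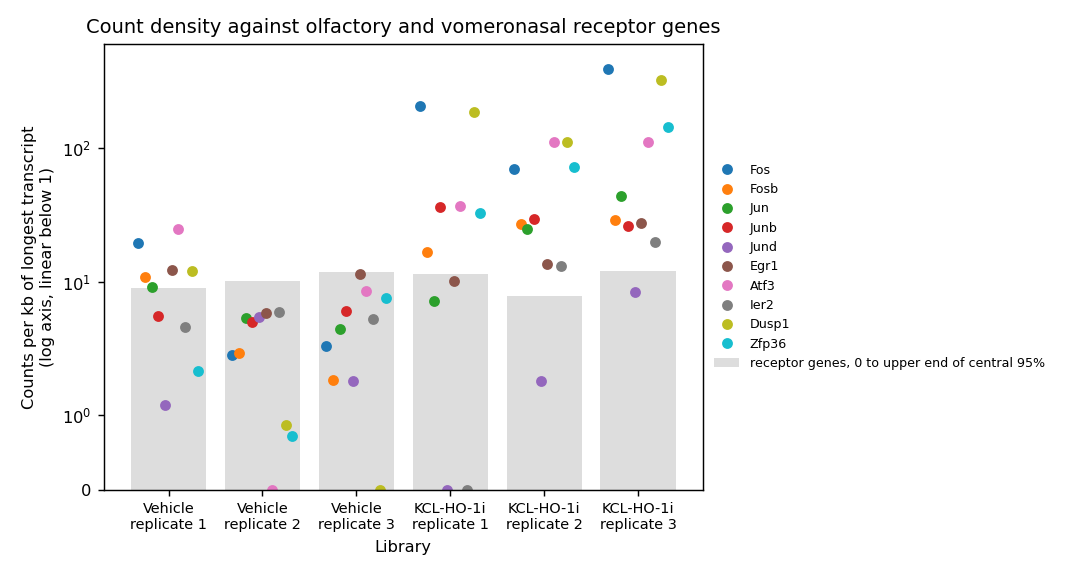
Counts per kb of longest transcript (log axis, linear below 1) of the 10 immediate early genes, as points in each of the 6 libraries, over a gray bar from 0 to the upper end of the central 95% of 1473 receptor genes (olfactory and vomeronasal). The points of vehicle replicates 2 and 3 all lie within the bars, and 6, 9 and 9 of the points lie above them in the KCL-HO-1i libraries.

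General macrophage markers, like the immediate early genes, were higher in sum with KCL-HO-1i. Among the KCL-HO-1i libraries the order differed: replicate 2 was the highest for the markers (7287 CPM) and the lowest for the 10 genes (4571 CPM). The 15 markers had 263, 77 and 130 counts with vehicle against 920, 1824 and 1995 with KCL-HO-1i. Of the 8 that were tested 0 were called and 7 were above 0, with a median log2 fold change of 3.15. Of all genes tested, 0% were called and 32.6% were above 0. Summed, the 15 markers ranged from 398 to 1470 CPM with vehicle and from 4240 to 7287 CPM with KCL-HO-1i. Of these markers, Fcgr3 and Mertk were at 0 in every vehicle library. The sorting marker Adgre1, which encodes F4/80, had 3, 3 and 1 counts with vehicle against 26, 44 and 72 with KCL-HO-1i, while Cd68 went the other way in 2 of the treated mice (8, 9 and 8 against 0, 14 and 4). Mrc1, which encodes CD206, had 12, 0 and 3 against 31, 31 and 104, and Lyve1 had 22, 8 and 12 against 8, 38 and 36. The 11 genes of LYVE-1+ perivascular macrophages ranged from 134 to 665 CPM in sum with vehicle and from 2664 to 4267 CPM with KCL-HO-1i. Of these 11, 9 were tested, 0 were called and all 9 were above 0, with a median of 3.06. Genes with few vehicle counts, such as Adgre1, Mrc1 and Hmox1, passed the filter with the help of the KCL-HO-1i libraries. The signs and medians of both lists are therefore not independent of the filter. The macrophage label thus rested on few counts in the vehicle libraries, and fewer macrophages and less RNA per macrophage cannot be told apart in bulk samples.

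For each 1000 counts on the macrophage markers the 10 genes together had 1019, 1182 and 1069 counts with vehicle against 1335, 627 and 1327 with KCL-HO-1i. The means were 1090 ± 83.4 and 1096 ± 406 (SD, n = 3), and the groups overlapped. On this scale Dusp1 was the 1 gene of the 10 that was higher in every KCL-HO-1i library, at 106, 26.0 and 0 against 471, 141 and 374 counts per 1000, where 0.661% of all genes tested were wholly higher. Jun, Jund, Egr1 and Ier2 were lower in every KCL-HO-1i library, as were 73.4% of all genes tested. Egr1 had 209, 338 and 392 counts per 1000 with vehicle against 48.9, 33.4 and 61.7 with KCL-HO-1i. Fos, at 156, 77.9 and 53.8 against 473, 80.0 and 410, overlapped, as KCL-HO-1i replicate 2 lay below vehicle replicate 1.

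**Figure D4:**
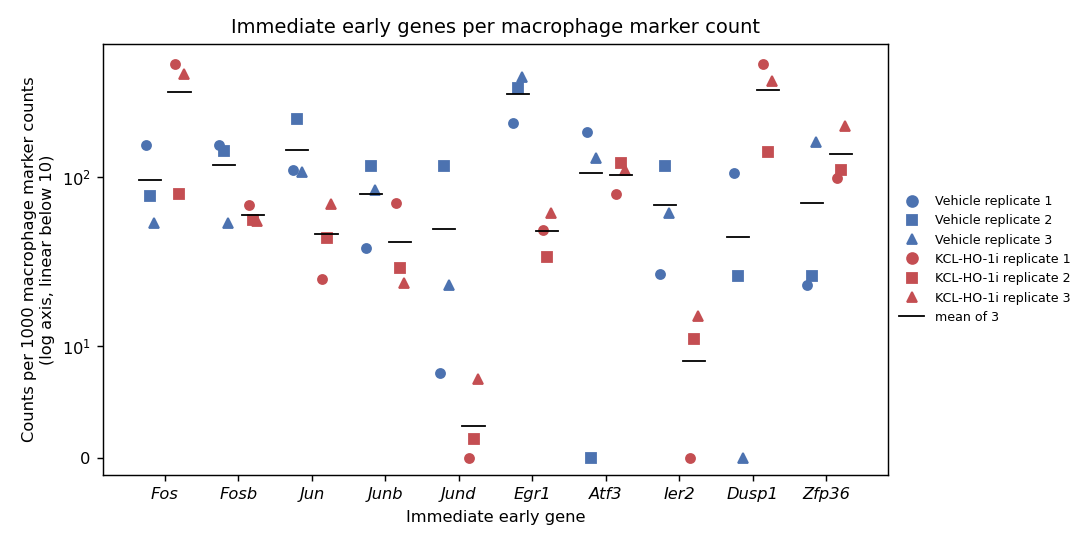
Counts of the 10 immediate early genes for each 1000 counts on 15 macrophage marker genes (log axis, linear below 10) in each of the 6 libraries, with vehicle in blue, KCL-HO-1i in red, symbols for replicates and lines for the mean of 3. Dusp1 was higher in each KCL-HO-1i library than in each vehicle library, Jun, Jund, Egr1 and Ier2 were lower, and the groups overlapped for the other genes.

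When the same edgeR test was run with libraries scaled to these markers, 0 of the 9 genes were called, while 68.3% of all genes tested were. The log2 fold change kept its sign for Fos (1.72), Dusp1 (2.82) and Zfp36 (0.96) and turned negative for Fosb, Jun, Junb, Egr1, Atf3 and Ier2, with a median of -0.94 over the 9 genes. Over all genes the median went from -0.52 to -3.97. The scaling changes all genes of a library by the same factor, so that this shift and that of the 9 genes were bound to be alike. The scaling rests on as few as 77 counts in 1 vehicle library. The part of macrophage content in the levels of these genes was not tested.

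**Figure D5:**
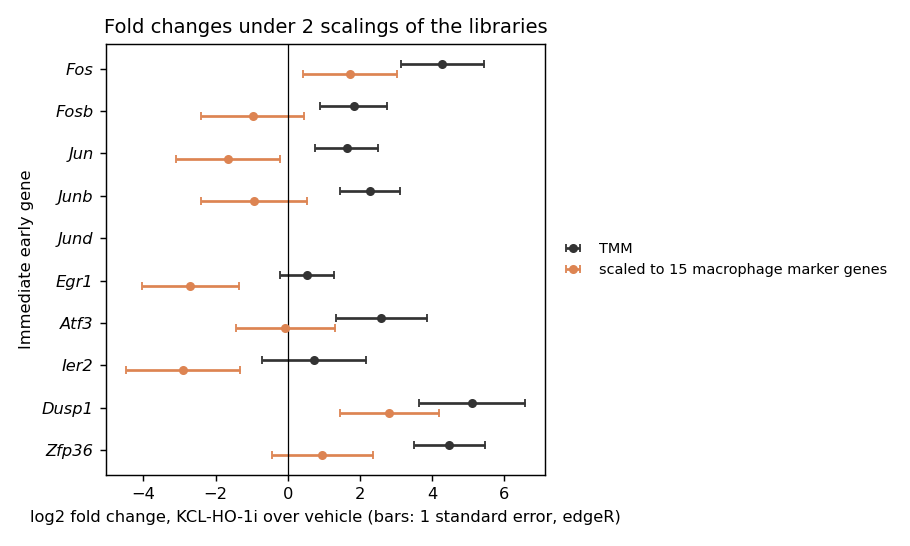
Log2 fold change of the 9 tested immediate early genes, KCL-HO-1i over vehicle (x axis), from edgeR's quasi-likelihood test with TMM (black) and with libraries scaled to 15 macrophage marker genes (orange). Bars are 1 standard error, Jund was not tested, and 6 of the 9 genes lie above 0 with TMM and below 0 with the marker scaling.

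Markers of other cell types were sparse. The 13 genes of the mammary epithelium ranged from 109 to 369 CPM in sum with vehicle and from 483 to 1673 with KCL-HO-1i, without overlap. Only 1 of the 13 was tested, and the genes did not move as a set. Cdh1 went the other way, with 5, 12 and 13 counts against 0, 3 and 0, and Elf5 had 1, 0 and 11 against 0, 6 and 0. The milk protein gene Csn3 (39, 1 and 18 counts against 244, 79 and 176) took most of these counts with KCL-HO-1i, while Wap, Csn2, Csn1s1 and Lalba were at 0 in every vehicle library and Epcam had at most 9 counts in any library. T cell markers (50.3 to 150 CPM with vehicle, 50.2 to 111 with KCL-HO-1i) and B cell markers (202 to 257 against 115 to 232) overlapped between the groups, as did neutrophil markers (36.2 to 101 against 23.0 to 205), endothelial markers (299.8 to 495 against 124 to 320) and erythroid markers (0 to 55.9 against 9.22 to 679). The sum of the fibroblast markers did not overlap and was lower with KCL-HO-1i (299.8 to 355 against 69.1 to 208). Most of these counts lay on Pdgfra (32, 50 and 45 against 10, 1 and 32) and Pdgfrb (21, 0 and 31 against 0, 12 and 14). Col1a1 had 2, 1 and 3 counts against 5, 1 and 0. Of the 2 fibroblast markers tested 1 lay wholly below vehicle, against 16.1% of all genes tested. The part of epithelial or other cells in the levels of the immediate early genes was not tested.

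Other genes of the pathway were read from lists. Of 23 other immediate early genes in the table, 16 were tested and 0 were called. Of the 16, 15 had a log2 fold change above 0, against 32.6% of all genes tested, with a median of 1.45. Ier5, Klf2, Ier3 and Klf6, among others, each had under 10 counts in at least 1 vehicle library. They passed the filter with the help of the KCL-HO-1i libraries, so that the signs and median are not independent of the filter. The smallest p-values were those of Ier5 (36, 7 and 28 counts for vehicle, 84, 249 and 386 with KCL-HO-1i, log2 fold change 3.05), Klf4 (33, 23 and 23 against 74, 199 and 326, 2.59) and Klf2 (9, 6 and 15 against 33, 42 and 94, 2.29), of which the last encode Krüppel-like transcription factors. Their edgeR adjusted p-values were 0.316, 0.328 and 0.481. Of the 16, these 3 and 4 others lay wholly above vehicle, against 7.88% of all genes tested. Egr2, the nearest relative of Egr1, had 23, 21 and 32 counts with vehicle against 0, 37 and 32 with KCL-HO-1i, and its log2 fold change of -0.39 was the only one below 0 in that list.

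All 12 of the other AP-1 and bZIP partners were in the table and 8 were tested, of which 0 were called, 3 were above 0 and 5 below (32.6% of all genes tested were above 0), with a median of -0.10, and for 0 of them were the groups apart. Atf4, the translation-controlled stress factor, had the smallest p-value (11, 16 and 6 counts with vehicle, 9, 79 and 71 with KCL-HO-1i, log2 fold change 1.898, edgeR adjusted p = 0.728), followed by Atf2 at -1.24 and Jdp2 at 1.21. Fosl2, a FOS relative, had 57, 39 and 52 counts with vehicle against 3, 69 and 91 with KCL-HO-1i. Among upstream kinases and SRF factors 13 of 18 were tested, 0 were called and the median was -0.44, with Map2k1 at 1.82, Mrtfb at -2.00 and Elk1 at -1.71. Srf itself had at most 14 counts in any library and was not tested.

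Among relatives of the feedback genes 8 of 11 were tested and 0 were called, with a median of 0.97. Of the 8 tested, 2 lay wholly above vehicle (Zfp36l1 and Zfp36l2), against 7.88% of all genes tested, and 1 wholly below (Dusp10), against 16.1%. Zfp36l1 had under 10 counts in at least 1 vehicle library. It passed the filter with the help of the KCL-HO-1i libraries, so that its place above vehicle is not independent of the filter. Zfp36l1 had 7, 3 and 10 counts with vehicle against 85, 42 and 66 with KCL-HO-1i (log2 fold change 3.14, edgeR adjusted p = 0.298), and Zfp36l2 had 11, 12 and 20 against 47, 84 and 124 (2.37, edgeR adjusted p = 0.349). Dusp10 was lower in every KCL-HO-1i library, with 14, 11 and 14 against 0, 2 and 8 counts (-2.24, edgeR adjusted p = 0.828). Of 11 mRNAs with AU-rich elements that ZFP36 is known to bind, 6 were tested and 0 were called. The log2 fold changes of these 6 were above 0, against 32.6% of all genes tested, with a median of 3.32. Ccl3, Il10, Cxcl1, Cxcl2, Ccl2 and Il1b each had under 10 counts in at least 1 vehicle library and so passed the filter with the help of the KCL-HO-1i libraries. Ccl3 had 1, 0 and 1 counts against 34, 24 and 182, Il10 had 8, 2 and 2 against 23, 66 and 79, and Ccl2 had 198, 0 and 23 against 734, 1861 and 2383. Tnf, the best known target, had 5, 0 and 7 counts against 0, 19 and 8 and was not tested. Among the others not tested, Il23a had 3, 12 and 5 counts against 0, 3 and 0, Ptgs2 had 3, 6 and 14 against 21, 9 and 4, Il6 had 4, 8 and 5 against 26, 27 and 14, and Csf2 had at most 5 in any library.

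Heat shock genes, which dissociation also induces, were tested for 9 of 10, with 0 called, 8 above 0 and a median of 2.39. Of all genes tested, 0% were called and 32.6% were above 0. Of the 9, 5 lay wholly above vehicle, against 7.88% of all genes tested. Hsp90aa1, Hspa8 and Hsp90ab1 each had under 10 counts in at least 1 vehicle library and so passed the filter with the help of the KCL-HO-1i libraries. The sum of the 10 heat shock genes was 460 to 1163 CPM with vehicle and 3599 to 6342 CPM with KCL-HO-1i. Hsp90aa1 had 31, 7 and 47 counts with vehicle against 279, 295 and 399 with KCL-HO-1i, Hspa8 had 42, 14 and 4 against 201, 581 and 328, and Hsp90ab1 had 10, 8 and 9 against 31, 66 and 184. The log2 fold changes of these chaperone genes were 3.39, 3.79 and 3.05. Between the inducible HSP70 genes, Hspa1b had 22, 38 and 21 counts against 204, 102 and 456 while Hspa1a had 11, 13 and 13 against 1, 10 and 25. Their coding sequences are nearly identical, so that the division of reads between them is uncertain.

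Which genes were called depended on the tool and the filter. DESeq2 called Fos, Dusp1 and Zfp36 both without a filter (adjusted p = 0.00831, 0.00727 and 0.0024) and on the filtered genes (adjusted p = 0.00276, 0.00325 and 0.000359), where 0.523% and 2.26% of the genes tested were called higher. EdgeR without a filter on low counts called the same 3 genes (adjusted p = 0.0223, 0.00607 and 0.0169) and 0.359% of all genes higher. Limma voom with sample quality weights called Fos, Fosb, Atf3, Dusp1 and Zfp36 and 4.03% of all genes higher. Without vehicle replicate 1, which had the most counts on these genes among the vehicle libraries, edgeR called Fos (log2 fold change 6.03, adjusted p = 0.0473) and Dusp1 (8.55, adjusted p = 0.0306) and 0.32% of all genes higher. With each of the other mice left out in turn, 0 of those tested were called, which were 8 (Ier2 not among them) without KCL-HO-1i replicate 2 or 3 and 9 otherwise. Without vehicle replicate 1 the log2 fold change also moved to 3.18 for Fosb and 4.45 for Atf3. Over the mice left out it ranged from 0.29 to 1.03 for Egr1, and for Ier2 it was 1.61 without KCL-HO-1i replicate 1. Jun, Junb, Egr1 and Ier2 were called by none of these tools.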

How the data were processed

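Bulk RNAseq of LYVE-1+ TAMs from 3 vehicle-treated and 3 KCL-HO-1i treated mice was examined. Per the paper's methods and the submitters' processing notes, the authors used FastQC 0.11.9, STAR 2.7.9a, Salmon 1.9.0 and tximport on mm10. For differences in the sorted cells they used DESeq2, with cutoffs of 0.6 for the log fold change and 0.05 for adjusted p. The values they deposited are estimated counts per gene, called TPM counts in the methods although library totals differ. Columns were matched to mice by the code in each sample's description. After rounding, genes were kept by filterByExpr if they passed a count of 10 and a total of 15. TMM factors and the edgeR 4.0.16 quasi-likelihood fit of treatment alone followed, in R 4.3.3. Calls required an adjusted p-value (Benjamini-Hochberg, over all genes) under 0.05 and an absolute log2 fold change above 0.6. DESeq2 1.42.0, limma 3.58.1 and other scalings, filters and left-out mice were alternatives. The standard error was the log2 fold change divided by the square root of the F value. Single values were compared by two-sided exact permutation tests of log2(CPM + 1). The fit was tested on simulated data. Recovery of changes was required only at a dispersion (spread beyond counting noise) of 0.05, while that of these data was 0.903. How many changes the fit finds at the latter is not given here, so that 0 calls do not show that no gene changed. Positions and transcript lengths are from GENCODE M21 (GRCm38), and promoters from RefSeq (GRCm38.p6).

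All 10 genes were named, with the 3 smallest p-values of each other list, 5 genes of like pattern and the target and sorting markers. Egr2, Fosl2, Srf, Tnf and the other untested or filtered mRNAs with AU-rich elements were named after their values were seen. So were Hspa1a, Hspa1b, Prdx2, Cd68, Csn3, Epcam, Cdh1, Elf5, Pdgfra, Pdgfrb and Col1a1, and other markers at 0. The genes and lists were chosen with earlier results of these data known. Replicates are separate mice, and libraries of the same group differed beyond sampling noise (chi-square per degree of freedom 6.64 to 37.3). Libraries held 206728 to 535224 counts. The floor of 3 counts corresponded to 10.2 to 16.8 CPM after TMM and to 5.61 to 14.5 CPM by library totals. The TMM factor was lowest in KCL-HO-1i replicate 3, at 0.575, where Fos stood at 2936 CPM after TMM and at 1528 CPM by library totals. Fos, Fosb, Junb, Atf3, Dusp1 and Zfp36 also lay wholly above vehicle by library totals.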

Additional observations from a re-analysis of the deposited data

How the results depend on the processing

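Of 9 immediate early genes tested 0 were also called with RLE normalization, library totals, scaling to the macrophage markers, no mitochondrial genes, no fold change threshold and the replicate block, as were 0 of 8 with thinned counts. With at least 10 counts in every library 0 of 2 were called, and Fos, Dusp1 and Zfp36 were not tested. DESeq2 called 3 on unfiltered and 3 on filtered genes, edgeR called 3 on unfiltered genes and limma voom called 5. All genes called numbered 0 with the settings of the report and 165, 236, 82 and 299 in these 4, 67 with at least 10 counts in every library and 4958 with the marker scaling. At an unadjusted p-value under 0.05 edgeR had 364 genes higher and 222 lower. With each mouse left out in turn, 0 to 33 genes and 0 to 2 immediate early genes were called, and the median log2 fold change of the tested ones was 2.01 to 3.18. Leaving out vehicle replicate 1 was the 1 such setting with any call.

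The marker scaling reversed the median to -0.94 and single genes to -0.97 (Fosb), -1.65 (Jun), -0.94 (Junb), -2.70 (Egr1), -0.063 (Atf3) and -2.90 (Ier2). It divides by counts that were themselves higher with KCL-HO-1i. With the replicate block the median was 2.41 and Ier2 was at -0.021. On the log2(CPM + 10) scale the difference of Ier2 was 0.0101, against -0.87 with a pseudocount of 1. KCL-HO-1i replicate 1 had 0 counts of Ier2, so that its value on either scale was set by the pseudocount alone. The replicate numbers belong to different mice, the deviations of same-numbered libraries correlated at -0.0026, 0.055 and -0.033, and the block changed no call. Depth limits Jund, Ier2, Atf3 and Dusp1, with 0 counts each in 1 library.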

Other observations

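The genes whose level followed the sum of the 10 immediate early genes most closely were Hint1, Pnrc1, Ndufb10, H2afz and Cyba, with Pearson's r of log2(CPM + 1) from 0.990 to 0.996 over the 6 libraries, which fall into 2 separate groups and share their scaling. Hint1 had 15, 4 and 6 counts with vehicle against 52, 64 and 150 with KCL-HO-1i, and Pnrc1, a nuclear receptor coactivator gene, had 16, 9 and 12 against 54, 61 and 94. H2afz, which encodes histone H2A.Z, had 15, 4 and 5 counts against 156, 95 and 201. Ndufb10, a subunit gene of respiratory complex I, had 2, 0 and 0 against 25, 15 and 47, and Cyba, a subunit gene of the phagocyte NADPH oxidase, had 1, 0 and 0 against 25, 44 and 86.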
